A study of Homo sapiens with 18 samples.

Results

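Control-transfected SUM149PT cells were compared with control-transfected Hs578T cells, over all TempO-Seq probes whose normalized count averaged at least 10 in the 6 libraries. This rule kept 10217 of 21111 probes, which stand for 9652 of 19289 gene symbols. SUM149PT is an established basal-like TNBC cell line grown from an inflammatory breast cancer, and Hs578T is an established mesenchymal-like TNBC cell line. Both lines were transfected for 72 h with 50 nM siCtrl, a pool of kinase siRNAs, and each group had 3 libraries given by the labels as replicates. The comparison asks how the transcriptomes of the lines differ in control-transfected cells, which by their labels were given no ASAP1 siRNA. Each subtype was represented here by 1 line, so line and subtype cannot be told apart. TempO-Seq counts ligated detector probes on RNA from cell lysates, and a probe reads only a short stretch of its transcript. Libraries of the same lines transfected with 50 nM siASAP1 for 72 h, 3 for each line, were used as separate samples in which the same line difference was measured.

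Epithelial cells hold to each other through adherens junctions, tight junctions and desmosomes, and they fill their cytoplasm with keratin filaments. Mesenchymal cells instead express vimentin, N-cadherin and a collagen-rich matrix. The factors of the ZEB, SNAI and TWIST families repress junction genes, many of them through E-box motifs in promoters, while GRHL2, OVOL and ESRP proteins hold the epithelial program in place. Basal-like breast cancer cells express basal keratins, and inflammatory breast cancer is known for retaining E-cadherin.

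The 6 siCtrl libraries held between 4633629 and 9104747 reads, and 1 read was worth between 0.816 and 1.6 normalized counts. A listed value of 0 therefore allowed up to 2.45 to 4.8 normalized counts in a library (3 reads, counting error only). The first principal component carried 60.6% of the variance and separated the lines. The library labelled SUM149PT siCtrl 2 stood apart on the second (25.2%). Its correlation with the other libraries of its group was 0.74 and 0.76, and that with siASAP1 libraries of the same line reached 0.876. ASAP1 read 189 normalized counts in it, against 1087 and 1314 in the other SUM149PT siCtrl libraries. The library labelled SUM149PT siASAP1 2 correlated at up to 0.885 with siCtrl libraries and at up to 0.828 within its group, and its ASAP1 value was 468 against 282 and 184. Whether the labels of these 2 libraries were exchanged was not tested. An exchange would change both line comparisons and the interaction. Counts are therefore given also without the library labelled SUM149PT siCtrl 2. Probes of hematopoietic cells were read 0 times in all 6 libraries (7 probes), and those of melanocytes and neural cells at most 2 times in a line (8 probes). Among endothelial markers, VWF, CDH5, KDR, TEK and CLDN5 had 0 reads, while 1 probe of the adhesion gene PECAM1 read 78.7, 103 and 51.2 in SUM149PT and 16.9, 13.9 and 24.6 in Hs578T (adjusted p = 0.048, and 0.059 without the library labelled SUM149PT siCtrl 2). The other PECAM1 probe had 0 reads in both lines. Among adipocyte markers, FABP4 had 32 reads in Hs578T and 7 in SUM149PT, ADIPOQ had 2 in SUM149PT, and LEP and PLIN1 had 0.

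The lines differed in about equal numbers of probes in each direction. A probe was called when its adjusted p was under 0.05 and its absolute Log2 FC (SUM149PT minus Hs578T) over 1. By this rule 807 probes (7.9% of those tested) were higher in SUM149PT and 849 (8.31%) were higher in Hs578T, and the median Log2 FC of all probes was 0.006. The values had been scaled by size factors, so that median is no measure of balance between the lines. In bulk lysates, fewer cells expressing a gene and less RNA per cell cannot be told apart, here and in the values that follow. Among these calls, 575 and 585 differed by a Log2 FC of more than 3. Without the library labelled SUM149PT siCtrl 2, 1220 (11.9%) and 1522 (14.9%) probes were called, including 768 and 837 of those called with it. Counts in the gene lists below are to be read beside these shares of all probes. All 3 SUM149PT libraries were above all 3 Hs578T libraries for 18.4% of probes and below them for 18%. The filter on the mean of the 6 libraries bears on the gene lists below. A probe with a mean under 10 in 1 line passes it only when the mean of the other line is higher. The filter thus makes its line means differ, by however little. Of all probes tested, 1911 (18.7%) averaged under 10 normalized counts in 1 line, and 971 of them were called. Where that share was over 50% in a list, its count and median are a description of the probes that passed and no support for a direction, and the members with a mean of at least 10 in both lines are counted beside it.

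**Figure D1:**
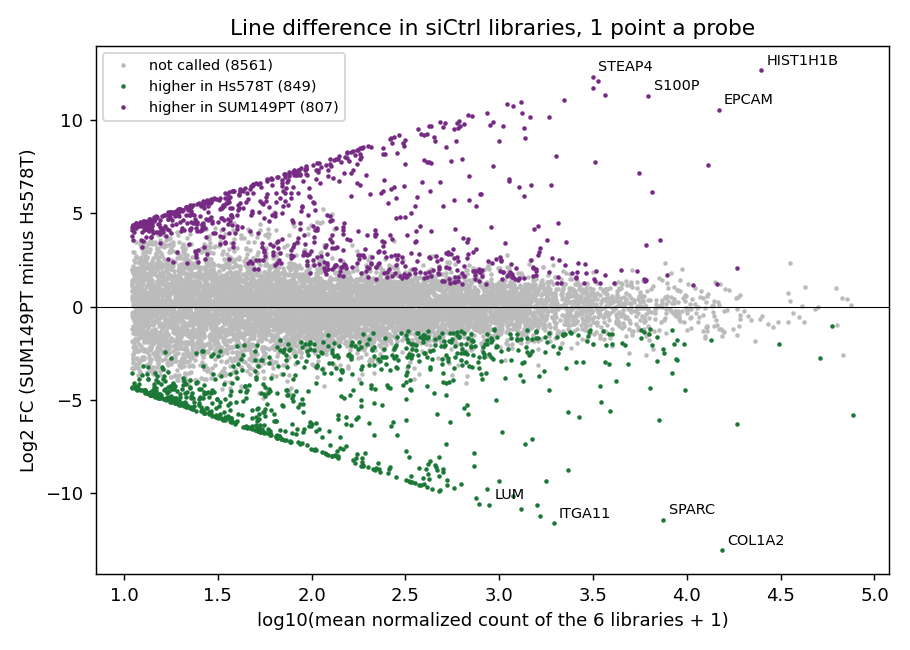
Log2 FC (SUM149PT minus Hs578T, siCtrl) of each probe tested against log10 of its mean normalized count plus 1. Purple points are the 807 probes higher in SUM149PT, green points the 849 higher in Hs578T, and grey points were not called; EPCAM and COL1A2 lie among the farthest from 0 at high counts.

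The largest differences higher in SUM149PT included EPCAM, a surface adhesion molecule of epithelial cells. EPCAM read 31520, 20400 and 36680 normalized counts in SUM149PT against 22.8, 10.6 and 23.6 in Hs578T. The groups did not overlap, with a ratio of means of 1553 (Log2 FC 10.56 ± 0.44 SE, adjusted p = 8.4e-05). STEAP4, a metalloreductase, read 6499, 6967 and 5395 against a single read over the 3 Hs578T libraries, a ratio of 23120 (95% counting interval 4149 to 913000). PLXDC2 and SLC6A15, a neutral amino acid transporter, were likewise near 0 reads in Hs578T and at 6560 to 7048 and at 1501 to 3389 normalized counts in SUM149PT. The linker histone probe HIST1H1B read 69110, 7559 and 71920 against 2.53 to 6.53. Its values spread widely within SUM149PT, with the library labelled replicate 2 lowest, yet no SUM149PT value came near those of Hs578T. RARRES1, a retinoic acid responsive gene, was instead highest in that library, at 10520 against 1609 and 1122. ANXA3, an annexin, read 2654, 1155 and 3304 normalized counts, against 1 read in Hs578T.

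Higher in Hs578T, the collagen chain gene COL1A2 led the list. It read 31380, 36460 and 24670 in Hs578T and 1.43, 6.38 and 1.6 in SUM149PT (Log2 FC -13.05 ± 0.52, adjusted p = 7.6e-05). ITGA11, a collagen-binding integrin, read 2941, 4089 and 4667, against 1 read in SUM149PT. CDH6, a cadherin, and LUM, a collagen-binding proteoglycan, had 0 reads in SUM149PT. CDH6 was at least 396-fold and LUM at least 448-fold higher in Hs578T, counted against 3 reads per library. KCNMA1, the pore subunit of a calcium-activated potassium channel, read 2691, 4665 and 2207 against 3 reads. LDB2, WISP1 and TMEM98 were among the 12 leading probes too, as were VCX and VCX3B, a pair of X-linked germ cell genes of near-identical sequence that probes may not tell apart.

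Most tested genes of epithelial junctions were higher in SUM149PT. Of 20 probes tested, 15 were higher in SUM149PT and 0 in Hs578T, with and without the library labelled SUM149PT siCtrl 2, and the median Log2 FC was 5.24 (4.91 with genes at 0 reads set to their bound). A further 8 probes were under the filter, 14 of the 20 averaged under 10 in 1 line, and of the other 6, 3 were higher in SUM149PT and 0 in Hs578T. CDH1, which encodes E-cadherin, read 94.4, 114 and 87.9 normalized counts in SUM149PT and 0, 0 and 0 in Hs578T. This is at least 37.3-fold (adjusted p = 0.00049). JUP and F11R, a desmosome linker and a tight junction adhesion protein, read 106 to 528 and 500 to 725 in SUM149PT, with 0 and 2 reads in Hs578T. The claudin probe CLDN7 read 2380, 839 and 2761 against 0, 5.71 and 6.9, and the desmosome anchor DSP read 2876, 976 and 2888 against 22.8, 17.1 and 13.8. In no called junction gene did the groups' values meet, but 12 of the called probes averaged under 10 in 1 line. Over all probes tested, the SUM149PT libraries lay wholly above the Hs578T libraries for 18.4%. The 5 junction probes that were not called overlapped, with Log2 FC values between -0.05 and 3.04.

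Regulators of the epithelial state followed the same direction. Here 25 of 28 probes were higher in SUM149PT and 0 in Hs578T (25 and 0 without the library), and the median Log2 FC was 6.27 (5.29 with bounds). Under the filter were 7 probes, 22 of the 28 averaged under 10 in 1 line, and of the other 6, 5 were higher in SUM149PT and 0 in Hs578T. ST14, the membrane protease matriptase, read 2290, 414 and 2484 against 0 in all Hs578T libraries, at least 654-fold. Its inhibitor SPINT1 read 3917, 3157 and 3958 against 5.06, 4.08 and 0. OVOL2, a zinc finger repressor of mesenchymal genes, read 1173, 781 and 1605 against 1 read. GRHL2, a grainyhead transcription factor of epithelia, read 93, 129 and 65.5 against 0, and ESRP1, an epithelial splicing factor, read 858, 10400 and 735 against 4.22, 66.1 and 0. The ESRP1 groups did not overlap, although a single library in each line carried most of its counts. Basal factor TP63 (140, 244 and 117 against 4.22, 0 and 16.8) and TFAP2C (731, 1161 and 689 against 0) were called as well. The remaining 3 probes did not pass the test.

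**Figure D2:**
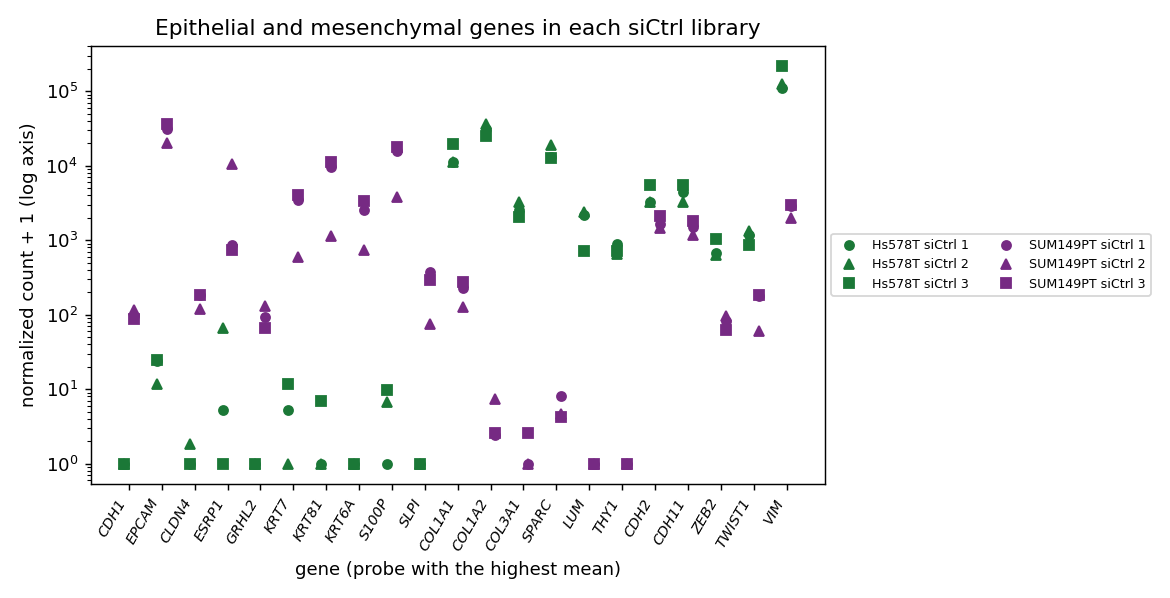
Normalized count plus 1 (log axis) of 21 genes in each siCtrl library, green for Hs578T and purple for SUM149PT, with circles, triangles and squares for replicates 1, 2 and 3. CDH1 and GRHL2 are read only in SUM149PT, LUM and THY1 only in Hs578T, and VIM is read in both lines at a higher level in Hs578T.

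The E-box read by ZEB and SNAI factors was looked for upstream of these genes. The letters CAGGTG or their reverse complement CACCTG, which do not overlap each other, were searched in the 250 bases before the first listed RefSeq start of each gene (GRCh38.p14). They occurred in 17.5% of 27305 promoters, in 14.7% of the 7530 promoters of genes tested, in 24.3% of 581 promoters of genes higher in SUM149PT and in 10.7% of 590 of genes higher in Hs578T. Of the 26 promoters found for tested genes of the epithelial lists, 11 held the motif (42.3%), and of the 20 for those called, 7 did (35%). The called promoters are among the tested ones and few were not called, so the shares cannot say whether called genes hold it more often. Other tested genes of these lists, CDH1, EPCAM, ST14, OVOL2, GRHL2 and ESRP1 among them, had no promoter listed and were not searched. Median GC content was 64.8%, 65.2%, 63.2% and 61.2% in tested genes, genes higher in SUM149PT, genes higher in Hs578T and called epithelial genes, in that order. The windows of AP1M2, DSP and MAPK13, whose genes were called, are shown as examples and hold the motif 3, 2 and 3 times. The windows of MUC1, DSG2 and TMEM30B hold it 2, 2 and 3 times and are not shown. Capitals mark the motif.
AP1M2: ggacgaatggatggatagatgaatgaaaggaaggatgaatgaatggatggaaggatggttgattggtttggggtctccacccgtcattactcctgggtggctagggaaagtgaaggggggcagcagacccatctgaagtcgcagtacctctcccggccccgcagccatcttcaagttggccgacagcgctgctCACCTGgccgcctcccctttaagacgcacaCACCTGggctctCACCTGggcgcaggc
DSP: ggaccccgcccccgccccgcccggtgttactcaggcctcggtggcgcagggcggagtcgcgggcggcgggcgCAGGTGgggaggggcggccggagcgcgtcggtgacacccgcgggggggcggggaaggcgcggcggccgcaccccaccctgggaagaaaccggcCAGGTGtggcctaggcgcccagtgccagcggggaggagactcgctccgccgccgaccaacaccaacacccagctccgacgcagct
MAPK13: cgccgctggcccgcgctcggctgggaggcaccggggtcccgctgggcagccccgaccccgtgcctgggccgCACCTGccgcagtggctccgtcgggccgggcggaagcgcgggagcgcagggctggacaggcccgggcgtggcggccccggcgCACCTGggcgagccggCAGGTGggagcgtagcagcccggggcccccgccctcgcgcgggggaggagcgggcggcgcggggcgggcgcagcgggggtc
The AP1M2 window lies at chr19:10587313-10587562 on the minus strand, the DSP window at chr6:7541421-7541670 and the MAPK13 window at chr6:36130263-36130512, both on the plus strand. AP1M2, a subunit of the epithelial sorting adaptor, read 350, 337 and 398 against 0 by its higher probe. MAPK13, a p38 kinase, read 1871, 1094 and 1691 against 24.5, 13.9 and 29.6. A match is a sequence of letters in a window, and factor binding was not measured.

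Most tested keratin probes were higher in SUM149PT too. Of 15 probes, 13 were higher in SUM149PT and 0 in Hs578T (14 and 0 without the library), with a median Log2 FC of 7.31 (6.35 with bounds). Under the filter were 6 probes, 12 of the 15 averaged under 10 in 1 line, and the other 3 were all higher in SUM149PT. KRT8, the simple epithelial keratin, read 11140, 10260 and 17040 against 132, 106 and 377. Its partner KRT18 read 971, 150 and 1320 against 54.9, 8.16 and 80.8, and its library labelled replicate 2 lay well below the others without reaching the Hs578T values. KRT17, a basal keratin, read 1509, 647 and 1941 against 0 in Hs578T, at least 516-fold. KRT6A, made by activated keratinocytes, read 2547, 729 and 3347 against 0, at least 835-fold. The hair keratin probes KRT81 (9741, 1122 and 11050) and KRT86 (8351, 815 and 9796) were near 0 in Hs578T. These and KRT83 are near-identical paralogs, and reads may be split among them. Another KRT81 probe was under the filter, with 8 reads in SUM149PT and 0 in Hs578T. KRT5, another basal keratin, read 42.9, 0 and 35.2 against 0 and was called only without the library labelled SUM149PT siCtrl 2 (adjusted p = 0.17 with it and 0.0012 without). KRT14, its basal partner, had 25 reads in Hs578T and 0 in SUM149PT and was under the filter.

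Hemidesmosomes anchor basal cells to the basement membrane. Their list was mixed, with 4 of 12 probes higher in SUM149PT and 2 in Hs578T (4 and 2 without the library) and a median Log2 FC of 1. ITGB4, the integrin chain of hemidesmosomes, read 146, 86.6 and 152 against 0 (at least 48.4-fold). The laminin chain probes LAMA3 (402, 257 and 529 against 8.44, 0 and 18.7) and LAMB3 were higher in SUM149PT. CD151, a tetraspanin partner of integrins, and the linker PLEC were higher in Hs578T by Log2 FC -1.86 and -1.42.

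The mesenchymal list went the other way, with exceptions. Of 21 probes, 15 were higher in Hs578T and 1 in SUM149PT (16 and 1 without the library), and the median Log2 FC was -3.14. VIM, which encodes vimentin, read 108600, 126600 and 218700 in Hs578T by its higher probe and still 2908, 1994 and 2965 in SUM149PT (Log2 FC -5.80 ± 0.38, adjusted p = 0.00015). SNAI2, a repressor of epithelial genes, read 4698, 6253 and 4786 against 110, 75.6 and 73.5. PRRX1, a homeobox factor of mesenchyme, read 1159, 1522 and 177 against 0, 5.47 and 1.6. TWIST1 (Log2 FC -3.14), ZEB2 (-3.25), FOXC2 (-5.84) and all 3 probes of the fibronectin gene FN1 (-4.44 to -3.05) were also called. SNAI1 was the called exception, at 20, 10 and 30.4 normalized counts in SUM149PT against 0 in Hs578T. CDH2, which encodes N-cadherin, read 3264, 3222 and 5543 against 1628, 1463 and 2108. Its groups did not overlap, and it did not pass the test (Log2 FC -1.18 ± 0.35, adjusted p = 0.066). ZEB1 was under the filter, with 3 reads in Hs578T and 0 in SUM149PT.

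Fibroblast matrix genes were mostly higher in Hs578T. There 25 of 34 probes were higher in Hs578T and 2 in SUM149PT (27 and 3 without the library), with a median Log2 FC of -5.41 (-4.48 with bounds). Under the filter were 5 probes, 19 of the 34 averaged under 10 in 1 line, and of the other 15, 9 were higher in Hs578T and 2 in SUM149PT. SPARC, a collagen-binding glycoprotein, read 13280, 19050 and 12510 against 7.15, 3.64 and 3.2 by its higher probe. COL1A1 read 11160, 11070 and 19550 against 226, 126 and 272, and COL6A3 read 31100, 41690 and 36510 against 421, 526 and 468. The COL3A1 probe with more counts read 2553, 3221 and 2033 against 1 read in SUM149PT. THY1, a surface glycoprotein of fibroblasts, and the proteoglycan DCN were at 0 reads in SUM149PT by their higher probes, at least 193-fold and 116-fold lower than in Hs578T. SUM149PT was not without matrix transcripts. THBS1, an adhesive matrix protein, read 3297, 2536 and 5817 in SUM149PT against 139, 69.4 and 449 in Hs578T, and TNC, tenascin C, read 2034, 872 and 2339 against 295, 316 and 260. In the siASAP1 libraries THBS1 was called again and TNC was not (Log2 FC 0.57, adjusted p = 0.33). COL12A1 read 2243, 6737 and 1945 against 729, 747 and 1274, and was called only without the library (adjusted p = 0.067 with it and 0.037 without).

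**Figure D3:**
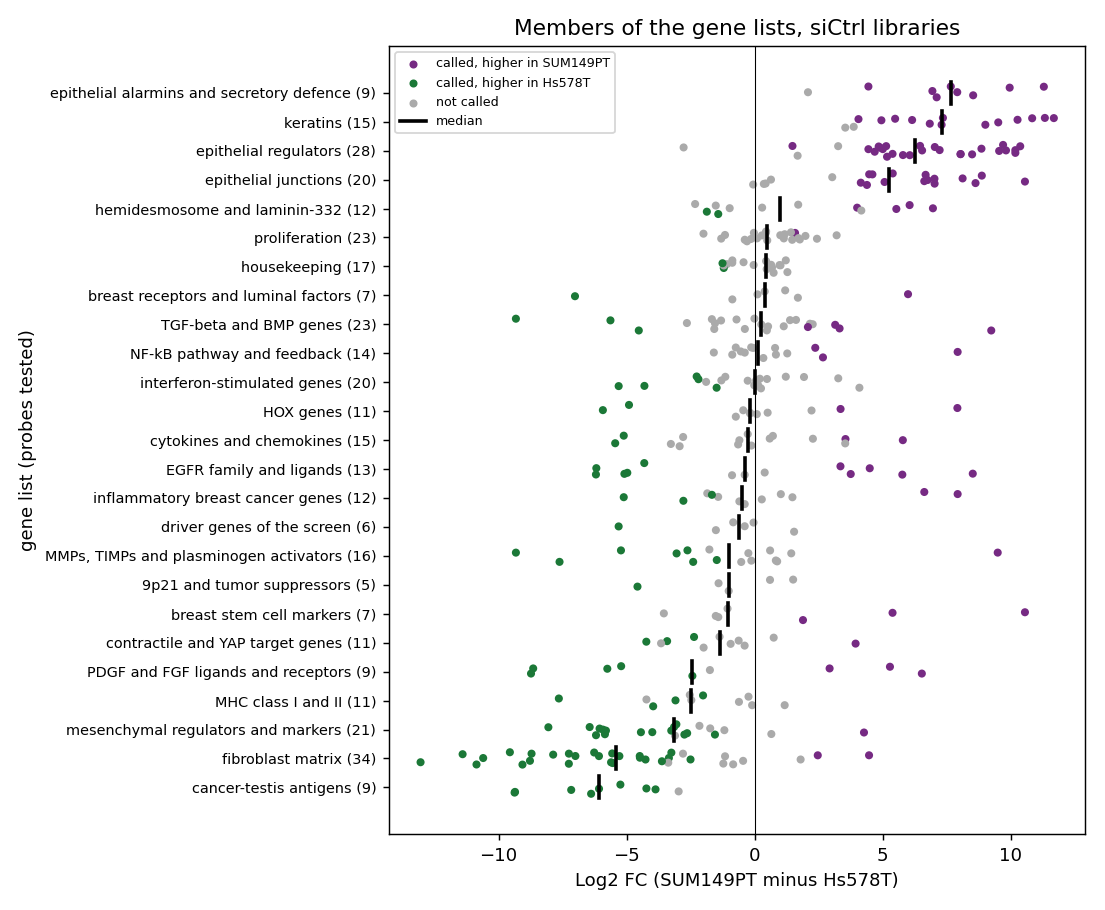
Log2 FC (SUM149PT minus Hs578T, siCtrl) of every tested probe in 25 gene lists, with the number of probes in brackets, ordered by median (black bar). Purple and green points are probes called higher in SUM149PT and in Hs578T, and grey points were not called; epithelial lists lie to the right and the matrix and cancer-testis lists to the left, and most of their probes averaged under 10 normalized counts in 1 line.

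Contractile and YAP target genes gave 3 of 11 probes higher in Hs578T and 1 in SUM149PT (5 and 0 without the library), with a median Log2 FC of -1.37. TPM1, a tropomyosin, read 4591, 8455 and 6350 against 526, 135 and 523 by 1 probe, and had 0 reads in both lines by another. CTGF, a matricellular YAP target, had a Log2 FC of -3.42. ANKRD1, another YAP target, was higher in SUM149PT with the library (adjusted p = 0.04) and not without it (0.071). Matrix proteases and their inhibitors gave 7 of 16 probes higher in Hs578T and 1 in SUM149PT (8 and 2 without the library), with a median of -0.998. TIMP3, an inhibitor of metalloproteinases, read 181, 238 and 173 in Hs578T and 0 in SUM149PT (at least 50.1-fold). MMP14, a membrane-bound collagenase, read 4863, 4303 and 11230 against 1078, 339 and 1138. SERPINB5, the serpin maspin of epithelial cells, read 685, 589 and 937 in SUM149PT and 0 in Hs578T.

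Growth factor systems were divided between the lines. In the EGFR family 5 of 13 probes were higher in SUM149PT and 5 in Hs578T (4 and 6 without the library), and the median Log2 FC was -0.38. All 10 called probes averaged under 10 in 1 line, and of the other 3 probes 0 were called. The EGFR ligand gene AREG read 326, 379 and 401 in SUM149PT and 0 in Hs578T by its higher probe (at least 139-fold), and the ligands EREG and EPGN and the receptor ERBB3 were also higher there, EPGN not without the library (adjusted p = 0.051). NRG1, the ligand of ERBB3 and ERBB4, was higher in Hs578T by all 4 probes tested, the strongest reading 228, 221 and 125 against 0, 5.47 and 1.6. EGF was higher in Hs578T too, at 71.7, 93.8 and 56.2 against 0, 9.11 and 0. EGFR itself read 559, 579 and 636 in SUM149PT and 581, 494 and 1592 in Hs578T, overlapping values (Log2 FC -0.38 ± 0.49, adjusted p = 0.65). ERBB2 overlapped as well (Log2 FC 0.40 ± 0.90, adjusted p = 0.81, and 1.22 with adjusted p = 0.24 without the library).

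Platelet-derived and fibroblast growth factor genes gave 5 of 9 probes higher in Hs578T and 3 in SUM149PT (5 and 2 without the library), and the median Log2 FC was -2.43. Of the 9, 6 averaged under 10 in 1 line, 10 further probes were under the filter, and the other 3 gave 1 call in each direction. PDGFRB read 403, 330 and 572 in Hs578T and 0 in SUM149PT, at least 110-fold, and its relative PDGFRA read 827, 703 and 697 against 2 reads. FGF2 read 2403, 3749 and 2670 against 431, 724 and 492. FGF7, made by stromal cells for epithelial cells, went the other way by its higher probe, at 302, 616 and 149 in SUM149PT against 4.22, 5.71 and 0. FGFR2, the receptor gene, was read only in SUM149PT, at 5.72, 151 and 57.6.

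In the TGF-beta and BMP list 4 of 23 probes were higher in SUM149PT and 3 in Hs578T (5 and 4 without the library), with a median Log2 FC of 0.26. The shares were 17.4% and 13%, beside 7.9% and 8.31% of all probes. GREM1, a secreted BMP antagonist, read 914, 538 and 838 in SUM149PT against 1 read in Hs578T. TGFB2, a ligand, read 2969, 2789 and 3149 against 343, 274 and 393 (Log2 FC 3.15 ± 0.31), and the receptor TGFBR1 had a Log2 FC of 2.09 ± 0.32. ID1, a BMP target, read 15670, 4581 and 13250 against 809, 952 and 1231. LTBP1, which holds latent TGF-beta in the matrix, was higher in Hs578T at 3395, 5396 and 4727 against 32.9, 309 and 67.1.

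Calls among cytokine genes went in both directions. Of 15 probes tested, 2 were higher in SUM149PT and 2 in Hs578T (2 and 4 without the library). This is 13.3% in each direction, beside 7.9% and 8.31% of all probes. The median Log2 FC of the 15 probes was -0.27, and 25 further probes, TNF and CSF3 among them, were under the filter. CXCL8, a neutrophil chemoattractant, read 5297, 10130 and 4769 in Hs578T and 270, 97.5 and 232 in SUM149PT (Log2 FC -5.11 ± 0.51, adjusted p = 0.0007). CXCL1, a chemokine of the same receptor, showed the reverse order, at 4006, 2142 and 3569 in SUM149PT against 158, 818 and 145. CCL2, a monocyte chemoattractant, was read only in Hs578T and IL18 only in SUM149PT, at 45.6, 98.7 and 16.8 and at 64.4, 39.2 and 63.9. IL6 read 31.5, 30.1 and 32 in SUM149PT and 53.2, 72.6 and 27.6 in Hs578T, and did not pass the test (adjusted p = 0.52).

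NF-kB genes gave 3 of 14 probes higher in SUM149PT and 0 in Hs578T (3 and 1 without the library), with a median Log2 FC of 0.15. PTGS2, the inducible cyclooxygenase, read 628, 2500 and 646 against 4.22, 5.71 and 0.985. Of 24 probes of secretory defence genes of epithelia, 15 were under the filter, and 8 of the 9 tested were higher in SUM149PT and 0 in Hs578T (9 and 0 without the library), with a median Log2 FC of 7.67 (6.56 with bounds). All 8 averaged under 10 in Hs578T and passed the filter through SUM149PT alone, and the 1 other probe was not called. S100P, a calcium-binding protein, read 15640, 3822 and 17810 against 0, 5.71 and 8.87. LCN2, an iron-siderophore binding protein, read 549, 187 and 499, and the protease inhibitor SLPI read 379, 73.8 and 294, both against 0. The classical alarmins S100A8 and S100A9 had 0 and 6 reads in SUM149PT and 0 in Hs578T.

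Of 25 probes of MHC genes, 14 were under the filter, and of the 11 tested 4 were higher in Hs578T and 0 in SUM149PT (6 and 0 without the library), with a median Log2 FC of -2.47. B2M, the light chain of class I molecules, read 8432, 13900 and 1427 in Hs578T and 185, 777 and 307 in SUM149PT (Log2 FC -3.96 ± 0.92, adjusted p = 0.026). HLA-B read 205, 273 and 399 against 2 reads, HLA-C had a Log2 FC of -3.09, and the immunoproteasome subunit PSMB9 one of -2.01. HLA genes are polymorphic and alike in sequence, so a probe may read the lines' alleles unequally, which was not tested. Interferon-stimulated genes gave 5 of 20 probes higher in Hs578T and 0 in SUM149PT (6 and 0 without the library), while the median Log2 FC was 0.02. GBP1 read 506, 441 and 510 against 25.7, 20 and 25.6, and the factor IRF1 read 2331, 4678 and 3330 against 802, 452 and 1049.

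Of 22 probes of cancer-testis antigens, 13 were under the filter, and 8 of the 9 tested were higher in Hs578T and 0 in SUM149PT (8 and 0 without the library), with a median Log2 FC of -6.08 (-4.22 with bounds). All 8 averaged under 10 in SUM149PT and passed the filter through Hs578T alone, and the 1 other probe was not called. MAGEC2 read 634, 726 and 632 in Hs578T and 0 in SUM149PT, at least 168-fold. MAGEA6 read 1841, 1793 and 2313 against 0, 5.47 and 3.2, and MAGEA3 read 146, 174 and 113 against 0. These are near-identical paralogs, so the split between them is uncertain. SSX2, GAGE1, MAGEA1, MAGEA2 and PRAME were called in the same direction.

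Of 7 probes of breast receptors and luminal factors, 1 was higher in SUM149PT and 1 in Hs578T (2 and 1 without the library), with a median Log2 FC of 0.40. Each call is 14.3% of the list, beside 7.9% and 8.31% of all probes. ESR1, the estrogen receptor gene, read 24.3, 54.7 and 40 in SUM149PT and 12.7, 13.1 and 7.88 in Hs578T by 1 probe, which did not pass the test (Log2 FC 1.69, adjusted p = 0.11), and had 0 reads by another. PGR, the progesterone receptor gene, had 4 reads in Hs578T over its 3 probes and 0 in SUM149PT. AGR2, a luminal disulfide isomerase, read 72.9, 111 and 56 in SUM149PT against 1 read. Of 7 probes of stem cell markers, 3 were higher in SUM149PT and 0 in Hs578T (3 and 2 without the library), although the median Log2 FC of the list was -1.05. EPCAM was 1 of the 3. CD24 read 1557, 451 and 2403 against 21.9, 22 and 42.4 by 1 probe, and had 0 reads in both lines by another. CD44, the hyaluronan receptor, read 9358, 4334 and 12270 against 1797, 1772 and 3049 (Log2 FC 1.89 ± 0.47, adjusted p = 0.035). In the inflammatory breast cancer list 2 of 12 probes, CDH1 and PTGS2, were higher in SUM149PT and 3, CXCL8, CAV1 and VEGFA, were higher in Hs578T (2 and 3 without the library), with a median Log2 FC of -0.49. CDH1 and PTGS2 averaged under 10 in Hs578T and passed the filter through SUM149PT alone. Of the 10 probes with a mean of at least 10 in both lines, 0 were higher in SUM149PT and 3 in Hs578T. RHOC, a small GTPase in that list, overlapped between the lines (Log2 FC 0.28 ± 0.76, adjusted p = 0.84).

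Of 11 HOX probes, 2 were higher in SUM149PT and 2 in Hs578T (4 and 2 without the library), with a median Log2 FC of -0.17. Either count is 18.2% of the list, beside 7.9% and 8.31% of all probes. HOXC12 read 282, 117 and 430 in SUM149PT and 0 in Hs578T, and HOXC13 read 203, 57.4 and 184 against 11 to 12.2. HOXB9 and HOXB3 were higher in Hs578T, at 43 to 189 and 25.3 to 33.5, with 1 and 0 reads in SUM149PT. Of 5 tumor suppressor probes, 0 were higher in SUM149PT and 1 in Hs578T (1 and 1 without the library), with a median of -1.01. MTAP, a methionine salvage enzyme gene beside CDKN2A, read 50.6, 12.2 and 18.7 in Hs578T and 0 in SUM149PT, while CDKN2A had 0 reads in both lines.

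Of 23 proliferation probes, that of the mitotic kinase AURKA was the 1 called higher in SUM149PT and 0 were higher in Hs578T (3 and 0 without the library). Their median Log2 FC was 0.50. MKI67 read 1516, 615 and 2260 in SUM149PT and 420, 240 and 1928 in Hs578T, overlapping values. Of 6 candidate driver genes, 0 were higher in SUM149PT and 1 in Hs578T (1 and 1 without the library), with a median Log2 FC of -0.61. ASAP1, an Arf GTPase-activating protein gene and the siRNA target of the series, read 1087, 189 and 1314 against 1641, 1414 and 2697 in Hs578T and did not pass the test (Log2 FC -1.51 ± 0.75, adjusted p = 0.23). Without the library labelled SUM149PT siCtrl 2 its Log2 FC was -0.62 (adjusted p = 0.2). MYC was called only without the library labelled SUM149PT siCtrl 2 (adjusted p = 0.079 with it and 0.0034 without), at 2340, 868 and 2685 against 480, 663 and 688. CCT5 (Log2 FC -0.83) and IRF2BP2 (-0.04) were not called. By 1 probe, the dopamine receptor gene DRD1 was read only in Hs578T, at 60.8, 41.6 and 22.7. Its other probe had 0 reads in both lines. Of 17 housekeeping probes, 0 were higher in SUM149PT and 2 in Hs578T (1 and 2 without the library), with a median of 0.45. Those 2 are 11.8% of the list, beside 8.31% of all probes higher in Hs578T. The called pair were YWHAZ (Log2 FC -1.25) and 1 of the PPIA probes (-1.20).

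A set of probes was read in 1 line only, with at most 3 reads in each library of the other and at least 100 normalized counts in each of its own. There were 81 such probes for SUM149PT, 54 of them with 0 reads in Hs578T, and 86 for Hs578T, 53 of them with 0 reads in SUM149PT. In the siASAP1 libraries 46 of the 81 and 59 of the 86 met the same limits. Without the library labelled SUM149PT siCtrl 2, the counts were 104 and 108.

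Line differences were measured again in the siASAP1 libraries, which share no sample with the siCtrl libraries. There 1611 of 10395 probes (15.5%) were higher in SUM149PT and 1486 (14.3%) in Hs578T. Of the 807 probes higher in SUM149PT siCtrl, 742 were tested, 740 had the same sign and 639 were called again (79.2% of the 807, and 39.7% of the siASAP1 calls). Of the 849 higher in Hs578T siCtrl, 807 were tested, 803 had the same sign and 699 were called again (82.3% and 47%). No probe was called in opposite directions. EPCAM and COL1A2 had Log2 FC values of 8.67 and -13.74 there. CXCL8 had a Log2 FC of -1.88 and was called in both. Some genes named above were not called in the siASAP1 libraries. Among them were TNC, ID1 and VEGFA (Log2 FC 0.57, 1.24 and -0.28), and PLEC, HOXC13, MTAP, AURKA and PECAM1. IL6 was higher in SUM149PT in the siASAP1 libraries (Log2 FC 3.56), but the difference from siCtrl did not pass the test of the interaction (adjusted p = 0.42), nor did that of CXCL8 (0.46).

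**Figure D4:**
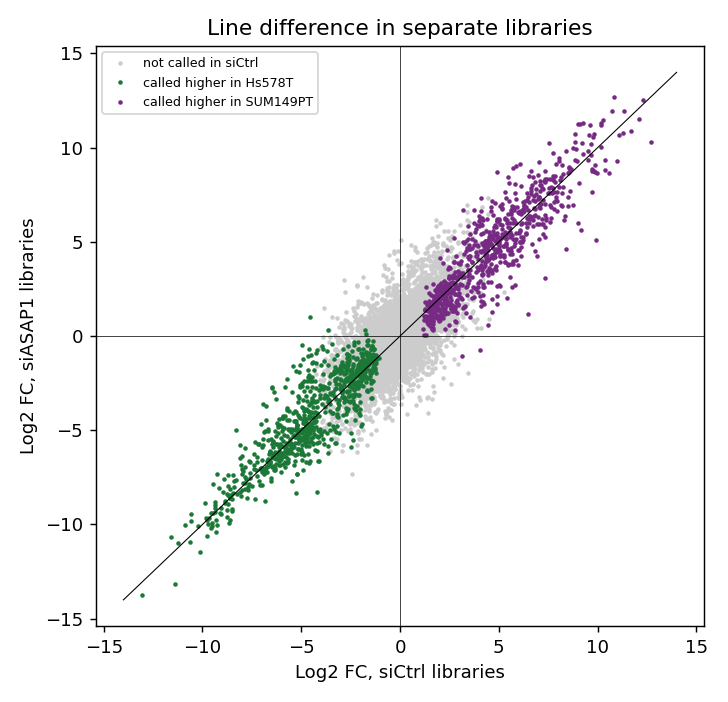
Log2 FC (SUM149PT minus Hs578T) of each probe in siCtrl libraries (horizontal) and in siASAP1 libraries (vertical), with the line of equal values. Of the probes called in siCtrl, 740 of 742 purple points lie above 0 and 803 of 807 green points lie below 0.

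Whether the line difference itself differed between treatments was tested as an interaction. With all 12 libraries 0 of 10373 probes (0%) had an adjusted p under 0.05 in limma (smallest 0.25), and 537 had an unadjusted p under 0.05. Without the libraries labelled SUM149PT siCtrl 2 and SUM149PT siASAP1 2, a setting chosen after the data were seen, 1553 (15%) did. They included 151 of the 1656 probes called in siCtrl (9.12%), of which 4 had the other sign in the siASAP1 libraries.

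By chromosome, the median Log2 FC was lowest on chromosome 8 (-0.94 over 367 probes) and chromosome 5 (-0.72 over 489), beside 0.006 over all probes. It was highest on chromosomes 15 (0.56), 20 (0.48) and 16 (0.47). On chromosome 8, 19.6% of probes were higher in Hs578T and 5.99% in SUM149PT, and on chromosome X 18.3% and 6.94%. Without the library labelled SUM149PT siCtrl 2 the chromosome 8 median was -1.11, and in the siASAP1 libraries it was -1.08. RefSeq gave a single position for 99.3% of probes. Copy number was not measured in these data.

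**Figure D5:**
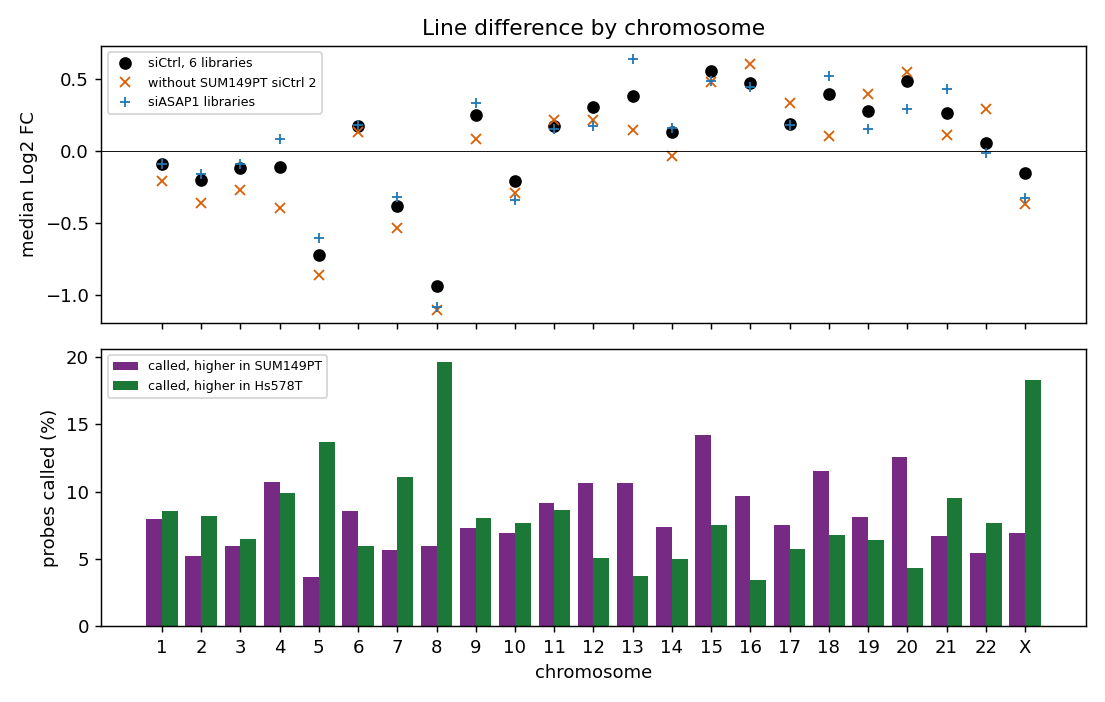
Upper panel, median Log2 FC (SUM149PT minus Hs578T) of the probes on each chromosome in the 6 siCtrl libraries, without the library labelled SUM149PT siCtrl 2, and in the siASAP1 libraries. Lower panel, percent of siCtrl probes called in each direction; chromosome 8 has the lowest median in all 3 sets and the largest share higher in Hs578T.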

How the data were processed

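TempO-Seq libraries of 2 TNBC cell lines, 3 siCtrl and 3 siASAP1 each, were taken from a table of 18 libraries and grouped by the submitters' labels. The authors demultiplexed and aligned reads to the probes with Bowtie, divided the counts by DESeq2 size factors, added 1 and deposited log2 values. Tool versions and the genome build are not given in the sources used here. Undoing the log2 gave whole reads for 100% of values (tolerance 0.02 reads), so depth was known. Probes averaging 10 or more normalized counts were fitted with limma 3.58.1 (lmFit, eBayes with trend) in R 4.3.3, with Benjamini-Hochberg adjustment over all probes tested. A Log2 FC is on the scale of log2(normalized count + 1) and understates the change of low probes. Its error is the standard error of the fit. The 3 replicates per line are called biological by the study, and the spread between them sets the p-values. All replicate pairs differed by more than sampling noise.

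Members and gene lists were chosen with earlier results of these data known. Named genes were the 12 called probes in each direction with the largest Log2 FC among those whose libraries do not overlap and whose higher line averages at least 100 normalized counts, up to 4 called members of each list per direction, and a fixed set of markers and drivers. Chosen after their values were seen were AP1M2, CDH2, COL12A1, COL6A3, DCN, DSP, ERBB3, ESRP1, FGF2, FN1, FOXC2, GAGE1, GRHL2, KRT8, KRT83, MAGEA1, MAPK13, PECAM1, PRAME, SLPI, SSX2, TFAP2C, THY1, TP63, TWIST1, ZEB2, FH, EBP, NUP210, HINT1 and NOL10. Some genes that the rule names are not reported here. Folds against 0 reads were counted against 3 reads per library, and intervals are 95% exact Poisson intervals of counting error.

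Alternatives were the replicate number as a block, TMM factors, library totals, no filter, a minimum of 50, a pseudocount of 0.1, voom weights, all 18 libraries in 1 fit, probes of a symbol summed, other call limits and each library left out. The script was tested on simulated reads with the spread of these replicates. An earlier simulation did not reach its own recovery limit in the test of the interaction. Its spread and fold sizes were first eased, and the limit on recovery was then dropped. The present simulation recovered most of the largest changes with the right sign and made few calls among unchanged probes. Smaller changes, also some of several-fold, were often missed, most of all in the interaction. A probe that was not called is therefore not shown to be equal. Plots used matplotlib 3.10.9 under Python 3.11.15.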

Additional observations from a re-analysis of the deposited data

How the results depend on the processing

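Calls in siCtrl libraries, 807 higher in SUM149PT and 849 higher in Hs578T, moved by over 1.5 times with a minimum mean of 50 (514 and 546, over fewer probes tested), with all 18 libraries in the fit (1239 and 1283) and with unadjusted p under 0.05 beside the Log2 FC limit (1474 and 1498); the cause was not tested for the latter pair. With 1 library left out, they ranged from 499 to 1220 and from 497 to 1522. The highest counts were without SUM149PT siCtrl 2, and counts fell most without Hs578T siCtrl 1 (505 and 497) and Hs578T siCtrl 2 (499 and 504), with 521 and 518 higher in SUM149PT without SUM149PT siCtrl 1 and 3. In siASAP1 libraries the ranges were 972 to 2240 and 824 to 2037, the low ends without Hs578T siASAP1 1 (1071 and 903 without Hs578T siASAP1 2). TMM, library totals, no filter, a pseudocount of 0.1, voom weights and summed probes kept all 4 counts within 1.5 times. The interaction count of 0 was 0 with the replicate block, with TMM and without SUM149PT siCtrl 2, and 1553 without SUM149PT siCtrl 2 and SUM149PT siASAP1 2. With the replicate number as a block, 992 and 1081 siCtrl probes and 1241 and 1185 siASAP1 probes were called. Deviations of same-numbered libraries correlated at -0.13, 0.43 and 0.42, and SUM149PT siCtrl 1 correlated best with Hs578T siCtrl 3 (0.29), so the numbers were not read as pairs. Log2 FC values of named probes kept their sign and side of the threshold in 1406 of the other comparisons with a setting, lost the call in 34 and gained it in 9; with 1 library left out, in 850, 127 and 4. The 9 reversals were of uncalled genes with 1 library left out, with Log2 FC ranges of -0.70 to 0.14 for EGFR, -0.20 to 1.22 for ERBB2, -0.34 to 0.94 for RHOC and -0.24 to 0.0945 for IRF2BP2. Of the counts and medians of the gene lists, 53 moved and 1 reversed under other settings (645 did not), and 67 moved and 1 reversed with 1 library left out (400 did not). The medians of the junction, epithelial regulator and keratin lists rose with a pseudocount of 0.1, to 7.67, 9.18 and 10.25. The stem cell median (-1.05) was 0.42 with a minimum mean of 50, and -0.93 to 0.50 with 1 library left out, the high end without SUM149PT siCtrl 3. Depth limits probes at a few reads, where 3 reads are up to 4.8 normalized counts.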

Other observations

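The following 5 genes were read in 1 line and at or near 0 in the other, and were chosen after their values were seen. FH, a Krebs cycle enzyme, read 415, 309 and 313 normalized counts in SUM149PT and 4.22, 0 and 0 in Hs578T. EBP, a sterol isomerase, read 155, 142 and 181 in SUM149PT and 0 in Hs578T, and the nuclear pore gene NUP210 read 446, 225 and 379 against 0. In the other direction, HINT1 read 1456, 1557 and 1383 in Hs578T and 0, 13.7 and 3.2 in SUM149PT, and the nucleolar gene NOL10 read 743, 739 and 1059 against 1.43, 0.911 and 3.2. The siASAP1 means kept these orders, with HINT1 at 1534 in Hs578T and 6.45 in SUM149PT and FH at 3.02 in Hs578T and 176 in SUM149PT. In BT549, the other mesenchymal-like line of the series, the siCtrl means of FH and HINT1 were 258 and 1431 normalized counts. Each of these genes is given by a single probe, and whether the probe's target or the transcript differs between the lines was not tested.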
